A study of Mus musculus with 4 samples.

Results

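The genes described here encode 4 cytokines of the interleukin-6 family (Il6, Il11, Osm and Lif), granulocyte colony-stimulating factor (Csf3), the receptor subunits Il6st and Osmr, the transcription factor Stat3 and its feedback inhibitor Socs3. They were chosen by symbol, as the probes that the platform annotation assigns to these 9 genes, which are 11 of the 29922 probes on the array and 9 of 16637 named genes. Colon RNA of female mice was hybridised to 1-colour arrays after amplification and Cy3 labelling. The zingerone group received trinitrobenzene sulfonic acid (TNBS, 250 mg/kg), a hapten that provokes colitis in rodents, mixed with zingerone, a phenolic ketone of ginger. The ginger group received the same TNBS dose mixed with ginger extract, the TNBS group TNBS only, and the mock group neither. All 4 groups, of 6 mice each, received 0.1 ml of 50% ethanol, and colons were taken on day 7. The strain is labelled BALC/c for the groups that received TNBS and BALB/c for mock. The sources used here give no ages, do not say how much ginger or zingerone stands behind an array, and do not say whether its RNA came from 1 mouse or a pool.

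There was 1 array per group, so no difference below has an error, an interval or a p-value, and nothing shows how far 2 arrays of 1 group would differ. Values are Cy3 intensities on a linear scale, as deposited, or log2 differences between 2 arrays, and higher or lower, of a gene in a count, means a difference of at least 2-fold. Genes whose mean was at or above the median named probe (269 on TNBS and 270.5 on mock) on 1 or more arrays were taken as measured, which held for 10056 genes and 7 of the 9 members. Lif and Osmr did not. The background appears not to have been subtracted, so the fold of a dim probe depends on how it is handled. Over all measured genes the median size of the log2 difference was 0.17 between zingerone and ginger, the 2 arrays most alike, and 0.30 between TNBS and mock. The tissue label was borne out by its markers: all 12 colonocyte markers were measured, with Epcam, an epithelial adhesion molecule, at 23730 on zingerone, 23980 on ginger, 16460 on TNBS and 23352 on mock.

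Interleukin-6 family cytokines bind a receptor of their own together with gp130, the shared signalling subunit that Il6st encodes. The bound receptor activates Janus kinases, which phosphorylate STAT3, and STAT3 then switches on target genes, among them Socs3, whose product binds gp130 and the kinases and ends the signal. In the colon this pathway is known for driving epithelial repair and acute phase proteins during inflammation. G-CSF uses another receptor but also signals through STAT3, and it drives the production and release of neutrophils.

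Regulatory sequence was read from the RefSeq promoter table of assembly GRCm38.p6, which held 7 of the members in 8 windows, those other than Csf3 and Osm. The 250 bases before the start of Il6 are shown because the gene had one of the widest differences among the members. Capitals mark matches to 3 of 4 motifs searched on both strands: AP-1 (TGANTCA), C/EBP (TTGCNNAA) and NF-κB (GGNNTTTCC), in this order from the 5′ end, with no overlap.
Il6, chr5:30012864-30013113, plus strand: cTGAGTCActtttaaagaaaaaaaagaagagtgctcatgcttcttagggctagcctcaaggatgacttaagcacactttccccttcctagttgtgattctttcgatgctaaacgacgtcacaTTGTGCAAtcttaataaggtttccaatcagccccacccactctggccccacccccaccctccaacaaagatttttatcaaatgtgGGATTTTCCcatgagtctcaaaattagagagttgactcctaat
The NF-κB match began 43 bases before the start site, the C/EBP match 128 and the AP-1 match 249. Of the 32851 promoter windows in the table, 4.93% held the NF-κB letters, 9.56% the C/EBP letters and 6.75% the AP-1 letters. The fourth motif, for STAT (TTCNNNGAA), was in 7.02% of windows. Of the 8 windows searched, that of Socs3 alone held it, 154 bases before the tabulated start, which lies inside the annotated extent of the gene. The stretch of 30 bases around that match is shown because Socs3 is the member known as a STAT3 target, with AP-1 matches of Il11 (at the inner of its 2 tabulated starts) and Lif beside it to compare a gene that was higher on TNBS with one that was dim.
Socs3, chr11:117969501-117969530, minus strand: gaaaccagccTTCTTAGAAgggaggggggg
Il11, chr7:4778221-4778250, minus strand: aggagggagggTGAGTCAggatgtgtcagg
Lif, chr11:4257329-4257358, plus strand: ccagtcagctgTGACTCAggccatagtggc
The windows of Stat3, Il6st and Osmr and the outer window of Il11 held none of the 4 motifs. These matches are letters in a window and no measure of binding.

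The comparison of TNBS with mock shows the colitis model. Of the 4 family cytokines 3 were higher on the TNBS array, as were G-CSF and the feedback inhibitor, while the receptor genes and Stat3 differed less than 2-fold as gene means. In all, 5 of the 7 measured members were at least 2-fold higher and 0 lower, where 5.08% of measured genes were higher and 4.52% lower. Il6 reached the median on the TNBS array alone, so it is among the 7 only because it was high there. With no filter 5 of 9 members and 515 of 16637 genes were higher. The median log2 difference of the measured members was 2.10, against -0.04 over all measured genes. In whole tissue, more cells of a type and more RNA per cell cannot be told apart.

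**Figure D1:**
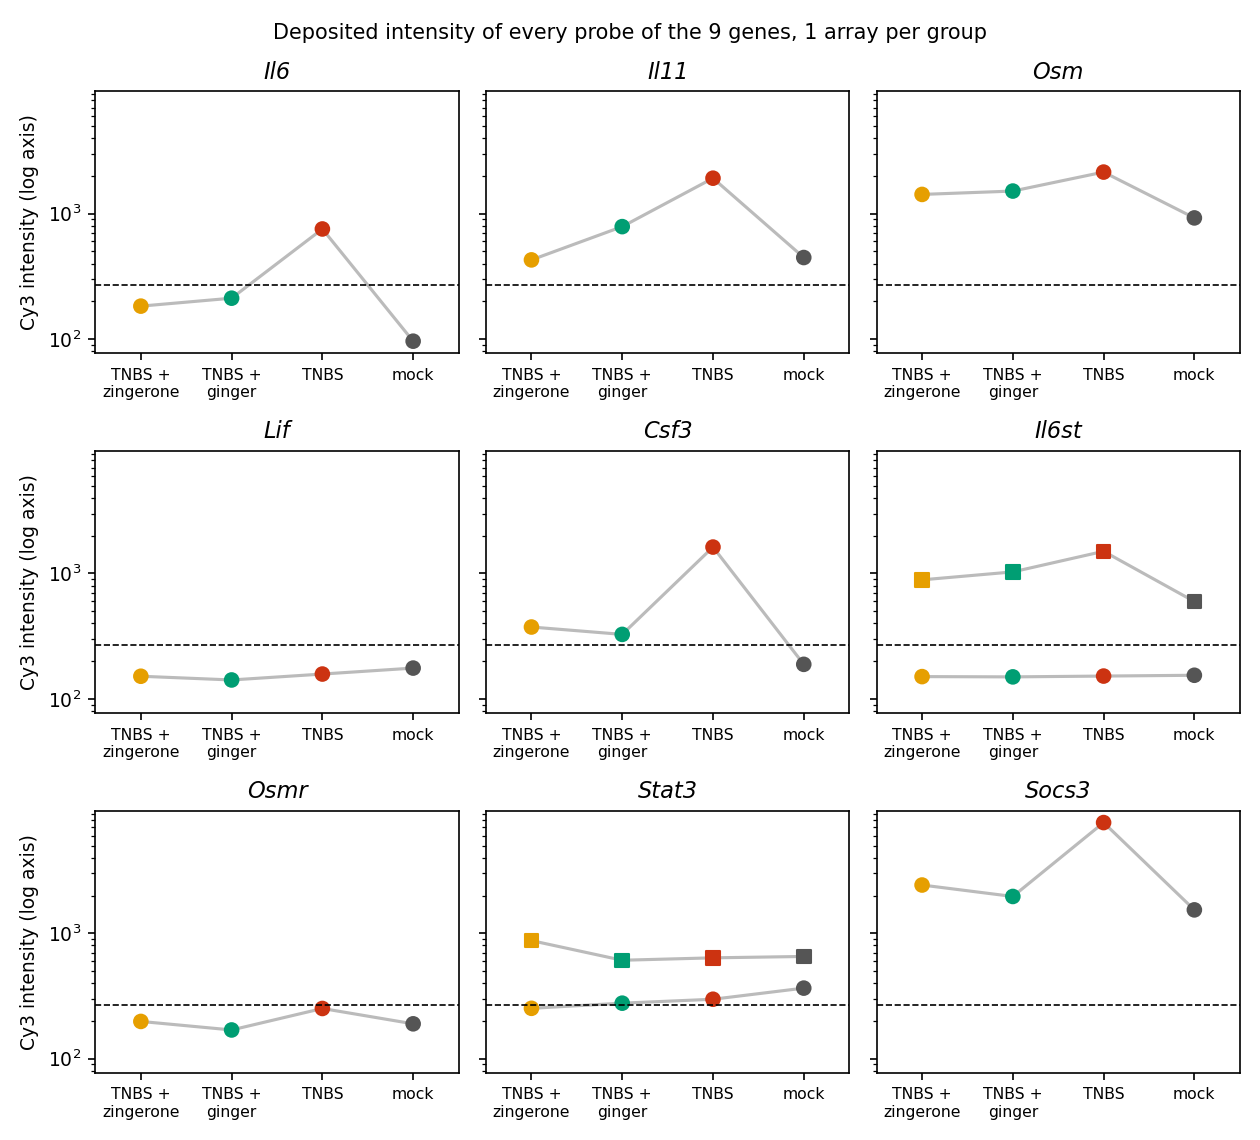
Deposited Cy3 intensity (log axis) of all 11 probes on the 4 arrays, a panel per gene and 1 point per array, with squares for the second probe of Il6st and Stat3. Grey lines join the points of 1 probe, and the dashed line is the median of the named probes, averaged over the 4 arrays. Il6, Il11, Osm, Csf3 and Socs3 peak on the TNBS array, while Lif stays below the line on every array.

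Il6 encodes the founding cytokine of the family, made by macrophages, fibroblasts and epithelium. Its probe read 183 on zingerone, 212 on ginger, 755 on TNBS and 96.1 on mock. Only the TNBS value stood above the median of the named probes, and the mock value was dimmer than nearly every other probe, with 0.508% of probes below it. The deposited values give a log2 difference of 2.97 (7.85-fold) between TNBS and mock, but the mock value lies under the 5th percentile of its array (122.2), so the size of the difference is not settled. After subtraction of the 5th percentile of intensities the difference was 3.66, a value that depends on the minimum of 50 set for mock. With low values raised to the 25th percentile the difference was 2.19.

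Il11 encodes a cytokine made mainly by stromal cells such as fibroblasts. It read 428 on zingerone, 788 on ginger, 1918 on TNBS and 447 on mock. TNBS was 4.29-fold higher than mock, and the zingerone and mock values were nearly equal. Osm encodes oncostatin M, a product of myeloid cells and T cells that acts on stroma through Osmr. Its values were 1423 on zingerone, 1514 on ginger, 2145 on TNBS and 925 on mock. TNBS was 2.32-fold higher than mock, the smallest difference among the 5 members past 2-fold, and both treated arrays lay between TNBS and mock.

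Lif encodes leukemia inhibitory factor and is the neighbour of Osm on chromosome 11, with no other gene annotated between them in the RefSeq table. Its probe read 152 on zingerone, 142 on ginger, 158 on TNBS and 176 on mock. Between 12.7% (ginger) and 29.9% (mock) of probes were dimmer, so the probe stayed in the dim part of every array. TNBS was 1.12-fold lower than mock, which at this intensity says little about the transcript.

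Csf3 encodes G-CSF, the growth factor of neutrophils. Its values were 374 on zingerone, 327 on ginger, 1624 on TNBS and 188.5 on mock. TNBS was 8.62-fold higher than mock (log2 3.11), the 49th largest increase among measured genes and the largest among the members. The mock value lay below the median of the named probes and the other 3 above it. With the 5th percentile subtracted the log2 difference was 4.50.

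The 2 probes of Il6st, the gp130 gene, disagreed. The brighter read 890 on zingerone, 1030 on ginger, 1503 on TNBS and 597.5 on mock, so that TNBS was 2.52-fold higher than mock. The other read 150.5 on zingerone, 149.8 on ginger, 152 on TNBS and 154.2 on mock, the same within 1.03-fold on all arrays and in the dim part of each array, with at most 19.3% of probes below it. Their mean was 1.57-fold higher on TNBS than on mock. Osmr, the oncostatin M receptor subunit, read 198 on zingerone, 170 on ginger, 251.5 on TNBS and 190 on mock, below the median of the named probes throughout, and TNBS was 1.32-fold higher than mock.

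Stat3 was the measured member closest to mock on the TNBS array. Its first probe read 252 on zingerone, 277 on ginger, 298 on TNBS and 365.5 on mock, and the second 875 on zingerone, 610 on ginger, 637.5 on TNBS and 654 on mock. TNBS was 1.23-fold lower than mock by the first probe and 1.03-fold lower by the second. The probes went opposite ways on zingerone, where the first was 1.18-fold lower than TNBS and the second 1.37-fold higher. These are transcript levels, and the phosphorylation that activates STAT3 was not measured.

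Socs3 read 2427 on zingerone, 1967 on ginger, 7641 on TNBS and 1538 on mock. The TNBS value stood apart, 4.97-fold higher than mock, the 117th largest increase among measured genes. The order of the arrays was TNBS, zingerone, ginger and mock, and the 2 treated values stood far closer to mock than to TNBS.

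**Figure D2:**
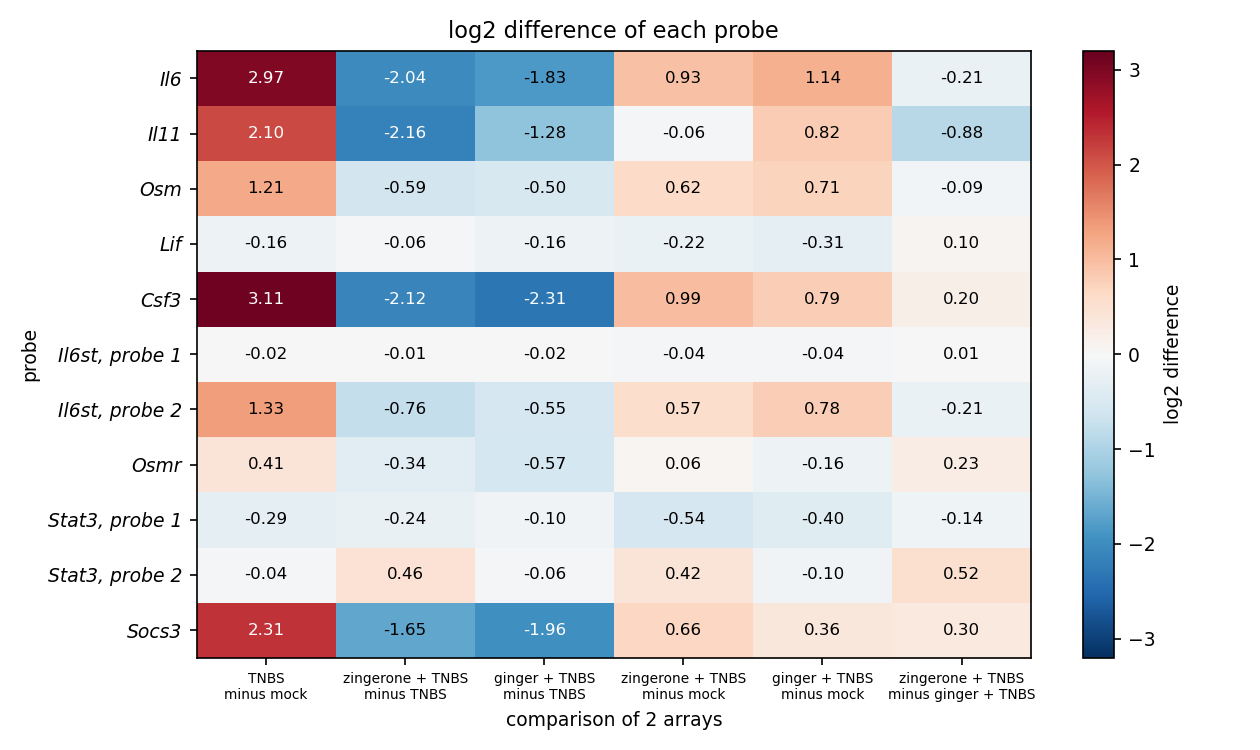
Log2 difference of each of the 11 probes (rows) in the 6 comparisons of 2 arrays (columns), with red for higher and blue for lower in the array named first. Il6, Il11, Csf3 and Socs3 exceed 2 in the TNBS minus mock column and lie below -1 in both columns of treated arrays minus TNBS.

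The next question was how these levels differed when zingerone or ginger extract was added to TNBS. Both comparisons use the same TNBS array and are given side by side. On zingerone 4 of 7 measured members (Il6, Il11, Csf3 and Socs3) were at least 2-fold lower than on TNBS and 0 higher, where 2.96% of measured genes were lower and 4.57% higher. On ginger 4 of 7 (Il6, Il11, Csf3 and Socs3) were lower and 0 higher, where 2.48% were lower and 1.35% higher. Il6 is again among the 7 only through its TNBS value. With no filter 4 of 9 members were lower on each treated array. Of 16637 genes 298 were then lower on zingerone and 249 on ginger. Medians of the measured members were -1.65 for zingerone and -1.28 for ginger, against -0.02 and 0.02 over all measured genes (log2, treated minus TNBS).

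As deposited, Il11 was the member with the largest decrease on zingerone, 4.48-fold lower than TNBS, and it was 2.43-fold lower on ginger. With the 5th percentile subtracted Il6 (log2 -3.36) and Csf3 (-2.57) had larger decreases on zingerone than Il11 (-2.55). Csf3 was 4.34-fold lower on zingerone and 4.97-fold lower on ginger, the largest decrease there, with 0.209% of measured genes lower still. Il6 was 4.12-fold lower on zingerone and 3.56-fold lower on ginger. Both treated readings of Il6 were dim, so the size of these differences is not settled. With the 5th percentile subtracted the difference on ginger was -2.82 (log2). Socs3 was 3.15-fold lower on zingerone and 3.88-fold lower on ginger. Osm stayed within 2-fold of TNBS, at 1.51-fold lower on zingerone and 1.42-fold lower on ginger. The brighter Il6st probe was 1.69-fold lower on zingerone and 1.46-fold lower on ginger, and both treated values lay between TNBS and mock.

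**Figure D3:**
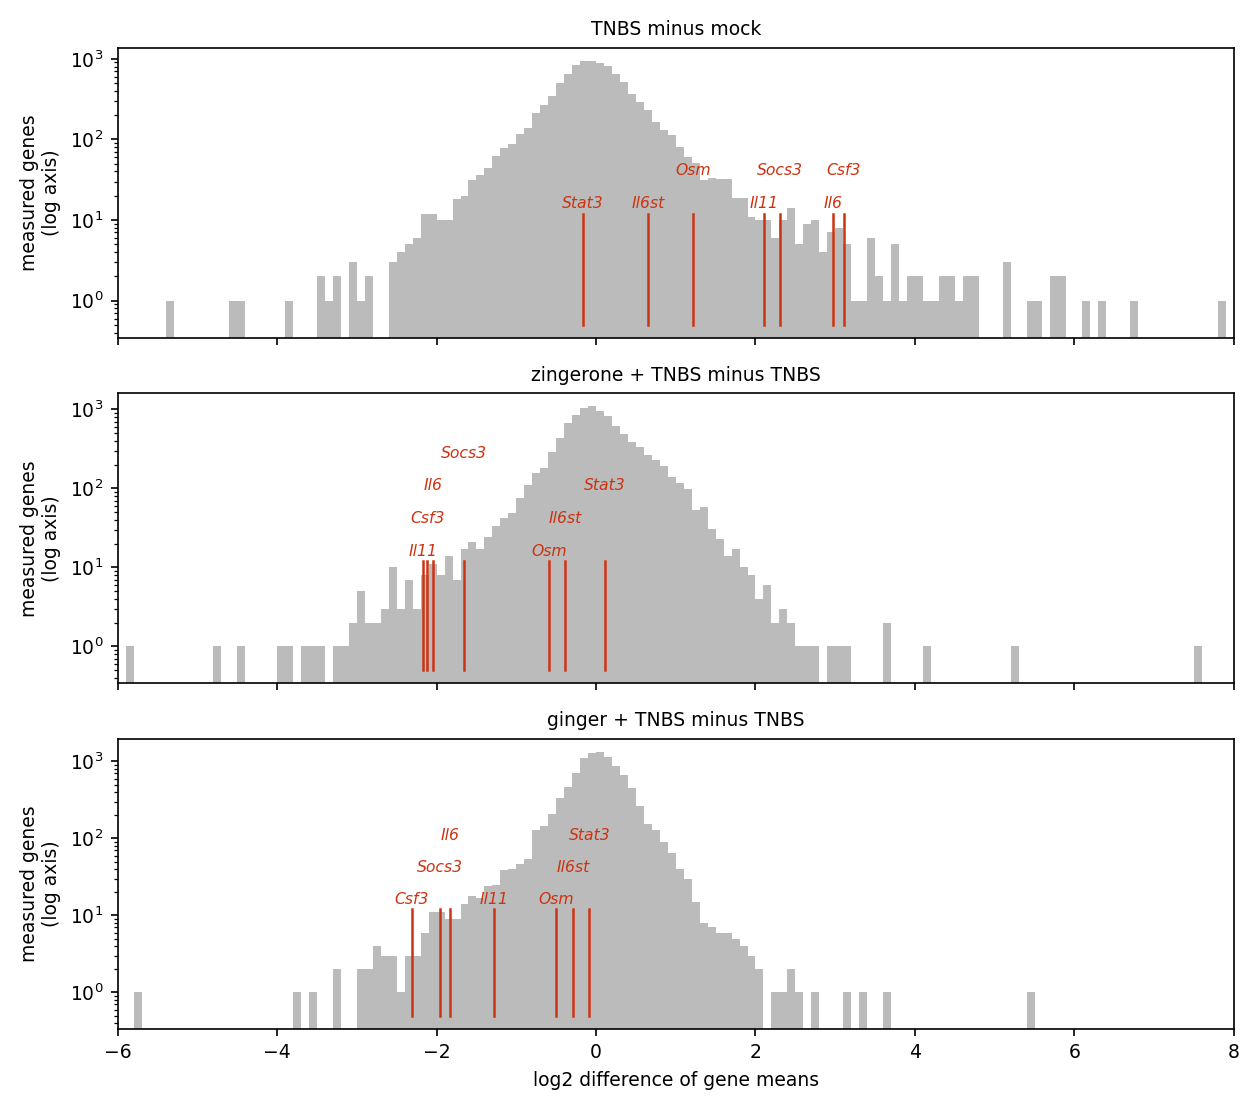
Number of measured genes (log axis) by log2 difference of gene means, in bins of 0.1, for TNBS minus mock, zingerone with TNBS minus TNBS and ginger with TNBS minus TNBS, with red lines at the 7 measured members. Csf3, Il6, Socs3 and Il11 lie in the upper tail against mock and in the lower tails against TNBS, while Stat3 lies near the centre.

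Set against mock, the treated arrays showed how far each member still was from the vehicle level. On ginger 1 of 7 measured members, Il6, was at least 2-fold higher than mock (2.20-fold) and 0 lower, where 1.62% of measured genes were higher and 1.08% lower. That value rests on dim readings on both arrays: with low values raised to the 25th percentile the log2 difference was 0.36. On zingerone 0 of 7 were higher or lower, where 1.53% were higher and 1.05% lower. Il6 was higher than mock by 0.93 (log2) on zingerone, short of 2-fold. Csf3 was 1.98-fold higher than mock on zingerone and 1.73-fold on ginger, and with the 5th percentile subtracted it passed 2-fold on both, at log2 differences of 1.93 and 1.63. Osm was 1.54-fold higher than mock on zingerone and 1.64-fold on ginger. Socs3 was 1.58-fold higher on zingerone and 1.28-fold on ginger. Il11 was 1.04-fold lower than mock on zingerone and 1.76-fold higher on ginger.

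Zingerone and ginger were also compared directly, although the amounts given are not matched in the sources used here. No member was 2-fold apart, where 0.746% of measured genes were higher on zingerone and 0.358% lower. Il11 came closest, at 428 on zingerone and 788 on ginger, 1.84-fold lower on zingerone, and 0.467% of measured genes were lower still. With the 5th percentile subtracted this difference passed 2-fold, at -1.12 (log2). Socs3 was 1.23-fold higher, Csf3 1.15-fold higher and Il6 1.16-fold lower on zingerone than on ginger. Without a second array per group it cannot be said whether any of these 4 differences exceeds the spread between arrays.

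Other genes of the pathway were described from lists that were written down with earlier results of these data known. The other measured ligands of the family, Ctf1, Clcf1 and Il27, were within 2-fold of mock on TNBS, so that 3 of 6 measured ligands were higher and all 3 are members. Of the receptor list 3 of 8 genes with a probe reached the median as gene means and 0 were 2-fold apart between TNBS and mock. Il6ra, the interleukin-6 receptor, read 248.5 on zingerone, 252 on ginger, 254 on TNBS and 292 on mock. Lifr stayed at or below 145 on all 4 arrays as a mean of 2 probes. The G-CSF receptor Csf3r was not measured as a mean of 3 probes, but 1 of them read 323 on zingerone, 246 on ginger, 451 on TNBS and 180 on mock, 2.50-fold higher on TNBS than on mock, while the other 2 stayed below 190 on every array. No probe was assigned to Il11ra1 here, so it was not analysed.

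As gene means, 0 of 6 measured Janus kinase and STAT genes were 2-fold apart between TNBS and mock, with a median of -0.09 (log2). One of these, Stat5b, has a single probe past 2-fold (log2 1.26) beside a dim one. Jak1, Jak2 and Tyk2, the kinases that gp130 uses, did not reach the median as gene means. Jak1 read 253 on zingerone, 183 on ginger, 168 on TNBS and 247 on mock. The brighter of 2 Jak2 probes read 298.5 on zingerone, 316 on ginger, 393 on TNBS and 344 on mock, and that of Tyk2 493 on zingerone, 485 on ginger, 473 on TNBS and 547.5 on mock, so both were within 2-fold. Among the brakes of cytokine signalling Socs3 stood alone: of 10 measured SOCS, PIAS and phosphatase genes 1 was higher on TNBS and 0 lower, and their median was 0.13. Cish, an inhibitor known for restraining STAT5, was 1.77-fold higher on TNBS than on mock, and Socs2 1.02-fold lower. The 2 probes of Socs1 disagreed, at 0.33 and -0.95 (log2, TNBS minus mock).

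In the list of colony-stimulating factors and their receptors 4 of 5 measured genes were higher on TNBS than on mock and 0 lower. They were Csf3, itself a member, Csf1, Csf2ra and Csf2rb2. Of all measured genes 5.08% were higher and 4.52% lower. Csf1r was 1.38-fold higher, and Csf2 and Csf2rb were not measured. Csf1, the macrophage growth factor, read 611 on zingerone, 682 on ginger, 1848 on TNBS and 433.5 on mock. The receptor subunit genes Csf2ra and Csf2rb2 were 2.63-fold and 2.17-fold higher on TNBS than on mock. Of the cytokines outside the family 3 of 6 measured genes were higher on TNBS, Il1b (19.9-fold), Il33 (5.19-fold) and Il1a (2.38-fold, a mean of 2 unlike probes at 2.12 and 0.38 on the log2 scale), while Il17a, Il22, Ifng and Il10 were not measured.

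Genes known to be induced by STAT3 in other settings were followed as a list of 30, of which 27 had a probe and 24 were measured. Many of them also respond to other factors, NF-κB included. On TNBS 13 of the 24 were at least 2-fold higher than mock and 0 lower, with a median of 1.30, where 5.08% of all measured genes were higher. On zingerone 10 of 24 were at least 2-fold lower than TNBS and 0 higher (median -0.72), where 2.96% of all measured genes were lower. On ginger 9 of 24 were lower and 0 higher (median -0.82), where 2.48% were lower. Against mock, 5 of 24 were higher on zingerone (1.53% of all measured genes) and 5 of 24 on ginger (1.62%), with 0 lower on either.

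Timp1, an inhibitor of matrix metalloproteinases, read 3168 on zingerone, 5296 on ginger, 24360 on TNBS and 674 on mock. The acute phase protein haptoglobin (Hp) read 8544 on zingerone, 4950 on ginger, 30534 on TNBS and 1195 on mock. Both were still above mock on the treated arrays by more than 4-fold. Cebpb, a transcription factor of the acute phase response, was 19.8-fold higher on TNBS than on mock, Saa3, a serum amyloid A protein, 13.5-fold and Lrg1, a leucine-rich glycoprotein, 7.54-fold. Reg3g, an antibacterial lectin of the gut epithelium, read 386 on zingerone, 316 on ginger, 1154 on TNBS and 213.5 on mock. At the other end Bcl6 was 1.05-fold lower and Mcl1, a survival factor, 1.04-fold higher on TNBS than on mock.

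**Figure D4:**
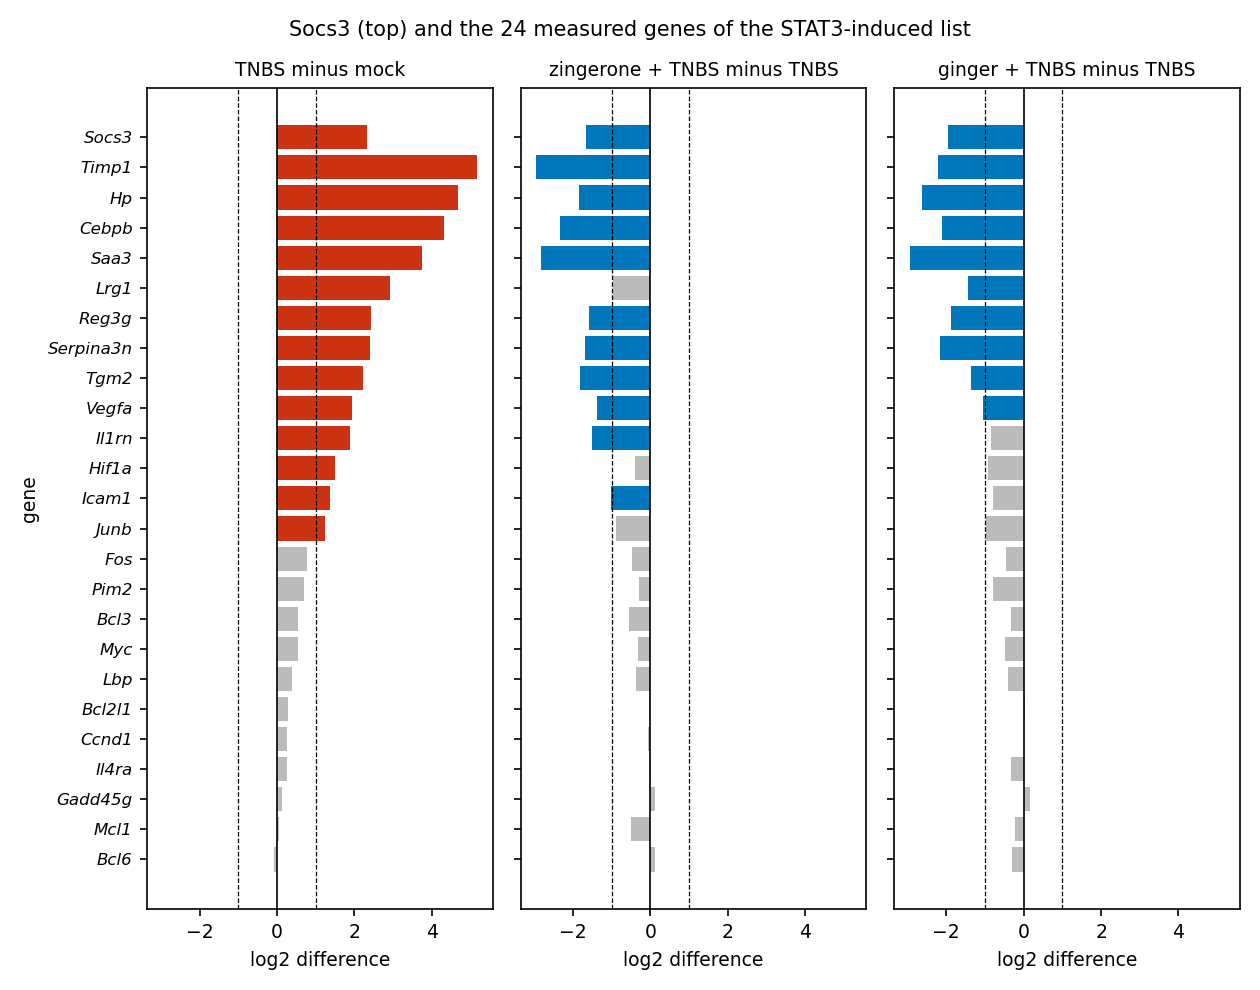
Log2 differences (bars from 0) of Socs3 and the 24 measured genes of the STAT3-induced list, sorted by TNBS minus mock, in 3 comparisons, with dashed lines at 2-fold. Bars are red at 2-fold higher or more, blue at 2-fold lower or more and grey between, and 13 of the 24 are red in the left panel.

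The profile of each of 2 members over the 4 arrays was set against 9847 measured genes, by the Euclidean distance of log2 values centred on their mean. The 5 genes nearest to Socs3 were Serpina3n, a protease inhibitor of the acute phase (distance 0.15), Reg3g (0.17), Snx18 (0.23), Fcgr4 (0.27) and Nfe2 (0.28). Serpina3n read 4458 on zingerone, 3251 on ginger, 14466 on TNBS and 2730 on mock. The 5 nearest to Il6 were Slfn1 (0.08), the nuclear receptor Nr4a1 (0.15), the Fc receptor Fcgr3 (0.16), coagulation factor F10 (0.16) and thrombomodulin, Thbd (0.20). All were picked from 9847 genes for a like profile over only 4 arrays, so the likeness is no separate result. Shared control was not tested.

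Markers of several cell types differed between the same arrays. Beside the counts that follow, 5.08% of all measured genes were higher on TNBS than on mock. Against TNBS, 2.96% of all measured genes were lower on zingerone and 2.48% on ginger. All 7 measured of 13 neutrophil markers were at least 2-fold higher on TNBS than on mock, and their summed intensity over the 11 with a probe was 76620 on zingerone, 97622 on ginger, 150604 on TNBS and 6380 on mock. Csf3r, Ngp, Camp and Mpo among them were not measured. The median intensity of the 7 measured markers was 9.23 (log2) on zingerone, 9.43 on ginger, 12.12 on TNBS and 9.38 on mock. The sums on the treated arrays thus rest on a few bright genes. S100a8 and S100a9, the neutrophil calprotectin genes, were 34.9-fold and 57.0-fold higher on TNBS than on mock. Against TNBS, 4 of 7 were at least 2-fold lower on zingerone (median -1.21, log2) and 4 of 7 on ginger (median -1.20). The calprotectin genes were 1.51-fold and 1.45-fold lower on zingerone than on TNBS, and 1.19-fold and 1.15-fold lower on ginger. Monocyte and macrophage markers were higher on TNBS than on mock for 3 of 8 measured genes, led by Cd14 (21.2-fold) and Fcgr3 (6.88-fold), and the median of the 8 was 0.22 (log2). Their sums were 7976 on zingerone, 8294 on ginger, 34778 on TNBS and 4764 on mock, of which Cd14 made up 28071 on TNBS and 1322 on mock. Against TNBS, 2 of 8 were lower on zingerone (median -0.23) and 2 of 8 on ginger (median -0.22). Cx3cr1, Ccr2 and Cd163 were not measured. For fibroblasts 3 of 9 were higher on TNBS than on mock (median 0.72), with Vim at 5.61-fold and Pdpn at 4.92-fold. Col3a1 was not counted as a gene mean, although its bright probe was 2.14-fold higher beside a dim one at 1.14-fold. Against TNBS, 2 of 9 were lower on zingerone and 2 of 9 on ginger. The sums were 12063 on zingerone, 12533 on ginger, 28317 on TNBS and 9149 on mock. Adipocyte markers had 4 of 6 higher on TNBS than on mock (Fabp4 11.04-fold, Cfd 3.69-fold), and 2 of 6 lower on zingerone and 4 of 6 lower on ginger than on TNBS, with sums of 29046 on zingerone, 16448 on ginger, 64762 on TNBS and 10217 on mock.

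Of the endothelial markers 1 of 3 measured was higher on TNBS than on mock, where 5.08% of measured genes were higher. It was Eng at 2.16-fold, a mean of 2 unlike probes at 3.06-fold and 1.52-fold, while Cdh5 was at 1.59-fold. T cell markers had 0 of 4 apart (Cd3d 1.58-fold and Cd3g 1.33-fold lower) and smooth muscle markers 0 of 7 (Des 1.71-fold higher, Myh11 1.64-fold lower). Epithelial markers ran the other way, with 5 of 12 colonocyte and 3 of 7 measured goblet cell markers lower on TNBS than on mock. Of all measured genes 4.52% were lower. Car4 was 8.04-fold, Guca2a 7.45-fold and Atoh1 2.85-fold lower. Clca1 was 2.78-fold lower as a mean of 3 unlike probes, with log2 differences of -3.73 for the bright one and of -0.89 and 0.19 for the dim ones. The bright probe of Muc2 was 2.82-fold lower, but its gene mean, taken with dim probes at -0.35, -0.17 and 0.44 (log2), stayed within 2-fold. Colonocyte sums were 86969 on zingerone, 61129 on ginger, 39652 on TNBS and 72214 on mock. Against TNBS, 7 of 12 colonocyte markers were higher on zingerone and 4 of 12 on ginger, where 4.57% and 1.35% of measured genes were higher. Smooth muscle sums were 9634.5 on zingerone, 16357 on ginger, 17196 on TNBS and 19897 on mock. Against TNBS, 2 of 7 smooth muscle markers were lower on zingerone, where 2.96% of measured genes were lower. On ginger 0 of 7 were lower, where 2.48% were. The part of these cell markers in the differences of the members was not tested.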

How the data were processed

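Per the labels, total RNA of the colon (5 µg) was amplified and labelled with Cy3 for 1-colour arrays. In the deposited table each probe has 1 linear intensity for each array. Per the submitters' processing notes limma was used, with no version or role; the scanner, any background correction and the normalization are not given. The sorted deposited intensities of the arrays lay within 1.84% of each other, which fits quantile normalization, and lie between 74.2 and 64634 on TNBS and on mock. Precision is limited by the small number of arrays.

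The platform annotation names 1 symbol for 21020 of 29922 probes and none for 8902. Through RefSeq synonyms (GRCm38.p6) 17558 were current, 3410 were updated and 52 were kept. Intensities were taken to log2 without a pseudocount and probes of a gene were averaged (Python 3.11.15, pandas 2.3.3, numpy 2.4.6). No test was run, since 1 array per group leaves no residual degrees of freedom. The steps were checked on simulated data. All 6 pairs of arrays were compared.

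The members and lists were chosen with earlier results of these data known. Named were all members, up to 6 genes at least 2-fold apart per pathway list, 10 receptors, kinases and brakes, the 5 nearest profiles to Il6 and to Socs3, and the 2 measured genes of each marker list that differed most between TNBS and mock. Epcam, Ctf1, Clcf1, Il27, Bcl6, Mcl1 and genes named as not measured stand outside that rule or were chosen after their values were seen. The same holds for Csf1r, Stat5b, Col3a1 and Muc2. The 8 alternatives were quantile normalization, equal array medians, subtraction of the 5th percentile with a minimum of 50, a floor at the 25th percentile, the brightest probe in place of the mean, no filter, a 75th percentile filter, and annotation symbols as given.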

Additional observations from a re-analysis of the deposited data

How the results depend on the processing

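Of 42 differences between arrays (7 measured members in 6 comparisons), 36 kept their side of 2-fold under every alternative that gave a value (all 8, or 7 for Il6st and Stat3), and none of the differences past 2-fold changed sign. Of 12 counts of members, 9 stayed within 1.5 times. Members at least 2-fold higher on ginger than on mock numbered 1 as reported, 2 with the 5th percentile subtracted (Il11 at 1.04 and Csf3 at 1.63 on the log2 scale, with Il6 at 0.84) and 0 with the floor. With that subtraction 1 member was higher on zingerone than on mock (Csf3, 1.93) and 1 lower on zingerone than on ginger (Il11, -1.12). With the brightest probe Il6st was higher on TNBS than on mock (1.33). For Il6 the mock value lies under the 5th percentile, so the subtraction replaced it with the minimum of 50. The cause of the other shifts was not tested. The filter at the 75th percentile left 5 members, without Il6st and Stat3. Subtraction also raised the counts over all genes. They were 855 higher and 841 lower for TNBS against mock (511 and 455 as reported), 963 and 534 for zingerone against TNBS (460 and 298), 326 and 416 for ginger against TNBS (136 and 249), 379 and 195 for zingerone against mock (154 and 106), 296 and 280 for ginger against mock (163 and 109), and 314 and 63 for zingerone against ginger (75 and 36). No paired analysis was possible because each group has 1 array. Leaving out a replicate was not possible for the same reason. Signal over background limits the folds of probes under the median. With the subtraction Il6 minus mock was 0.84 on ginger and 0.30 on zingerone, smaller than as deposited (1.14 and 0.93). TNBS minus mock was larger, at 3.66 (2.97 as deposited). Each of these subtracted values depends on the minimum of 50 that replaced the mock value.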

Other observations

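Gene means hid single probes that differed between arrays, chosen here after their values were seen. Stat5b, which encodes a transcription factor that growth hormone and some cytokines activate, has a probe at 753 on zingerone, 702.5 on ginger, 1222 on TNBS and 509.5 on mock, 2.40-fold higher on TNBS than on mock, while its other probe read at most 176. The brighter probe of Myc was 2.17-fold and that of Fos 2.87-fold higher on TNBS than on mock, whereas their gene means were 1.45-fold and 1.71-fold higher. Pim2, a survival kinase, has 3 unlike probes. The first read 282 on zingerone, 247 on ginger, 1231 on TNBS and 315 on mock. The second read 300 on zingerone, 299 on ginger, 337.5 on TNBS and 264 on mock. The third peaked on zingerone, at 629, and read 261 on ginger, 240.5 on TNBS and 277 on mock. Cxcr2, a chemokine receptor of neutrophils, has a probe at 352.5 on zingerone, 227 on ginger, 637.5 on TNBS and 142 on mock, 4.50-fold higher on TNBS than on mock, and another that was 1.13-fold higher.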
